A study of Mus musculus with 4 samples.

Results

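Transcripts of 8 genes of the AP-1 family were measured in sorted gonadotropes of Gata2 conditional knockout (cKO) and control mice: the FOS subunits Fos, Fosb, Fosl1 and Fosl2, the JUN subunits Jun, Junb and Jund, and the related factor Atf3. They were taken by symbol from a deposited table of 54532 genes, and each of the 8 passed the filter on low counts that left 17349 genes for testing. The comparison was made between 2 cKO and 2 control libraries, all from male mice of mixed strain aged 10 to 12 weeks. The series title describes the GATA2 knockout as specific to gonadotropes, the source of follicle-stimulating hormone (FSH) and luteinizing hormone in the pituitary. The labels name neither the Cre line, nor the alleles, nor how many animals went into a library. Each p-value therefore rests on the spread between libraries that may be technical replicates. The sample labels give sorted gonadotropes, while the design text of the series speaks of bulk pituitaries. Total estimated counts were 15541553 and 18362182 in cKO replicates 1 and 2, and 10646909 and 21135301 in control replicates 1 and 2.

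AP-1 is a dimer of basic leucine zipper (bZIP) proteins in which a FOS subunit pairs with a JUN subunit, or JUN subunits pair with each other. Most of its genes are immediate-early genes, which are transcribed within minutes of a stimulus through MAP kinases, serum response factor and CREB, and their transcripts decay rapidly. In gonadotropes, gonadotropin-releasing hormone (GnRH) induces FOS and JUN proteins, which act on the promoter of Fshb, the gene for the FSH beta subunit. Tissue dissociation and cell sorting also induce Fos, Jun and Atf3 in many tissues. No unsorted sample was analysed here, so levels present in the animal and levels induced during the sort cannot be told apart. In bulk samples, fewer cells of a type and less RNA per cell cannot be told apart either.

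The labelled cell type and deletion were checked first. Gata2 had 221 and 214 CPM (a gene's count scaled to a common library total, with TMM factors) in the cKO libraries, against 537 and 526 CPM in the controls. Gata2 was thus lower in cKO by 1.29 on the log2 scale (-1.29, SE 0.14, edgeR adjusted p = 0.0473). Requiring 1 CPM in 2 libraries gave an edgeR adjusted p of 0.0620 at a log2 fold change of -1.28. The count covers the whole gene, and the labels do not say which part is deleted. All 7 gonadotrope markers were detected, with summed levels of 6885 and 8149 CPM in cKO libraries and 15310.9 and 13901.8 CPM in controls. The sum was led by the hormone genes Cga and Lhb. For 5 of the 7 markers both cKO libraries were below both controls, against 19.3% of all genes tested. Nr5a1 overlapped between genotypes, with 275 and 372 CPM in cKO and 277 and 397 CPM in controls, as did Tgfbr3l. Markers of other pituitary cells were present too: the corticotrope list summed to 6171 to 7283 CPM in cKO and 7308 to 10029 CPM in controls. The lactotrope list, led by the prolactin gene Prl, was higher in both cKO libraries and summed to 1342 and 1361 CPM in cKO, against 350 and 629 CPM in controls. The somatotrope sum, led by Gh, overlapped between genotypes, with 2166 and 399 CPM in cKO and 1143 and 2395 CPM in controls. The somatotrope marker Ghrhr, at a low level, had 0 and 0.056 CPM in cKO and 8.64 and 3.82 CPM in controls. DESeq2 called Ghrhr lower in cKO and limma-voom called Gh lower, while edgeR called neither. Melanotrope markers summed to 172 and 231 CPM in cKO and 230 and 187 CPM in controls, and thyrotrope markers to 157 and 112 CPM in cKO and 81.1 and 78.4 CPM in controls. The thyrotrope sum was led by Dio2 (116 and 82.7 CPM in cKO, 54.9 and 52.6 CPM in controls), while the hormone gene Tshb had 7.33 and 7.08 CPM in cKO and 22.3 and 13.7 CPM in controls. Stem cell markers stood at 128 and 148 CPM in cKO and 83.7 and 95.9 CPM in controls, and mitochondrially encoded transcripts held 7.58% and 8.74% of counts in cKO and 5.36% and 6.04% in controls. Endothelial, leukocyte, fibroblast and erythroid markers each summed to between 0.0909 and 36.9 CPM in every library, with the endothelial marker Emcn and the macrophage marker C1qa at 0 in all 4. The part of these differences in the results below was not tested.

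Promoter sequence is shown for the 4 members whose RefSeq start lies within 30 bases of the GENCODE M21 start, and for Fshb as a target, because AP-1 and CREB act on these genes through short sites near the start. A RefSeq promoter entry was matched for 7 of the 8 members. The windows are the 150 bases before the RefSeq start on GRCm38.p6, 5′ to 3′ on the gene's strand. Capitals mark matches to the AP-1 site TGANTCA, the CRE-like site TGACNTCA or the CRE core TGACG on either strand. The core is contained in a CRE with G at the variable base, and no 2 capitalised matches overlap in these windows.
Fos (chr12:85473740-85473889, plus strand): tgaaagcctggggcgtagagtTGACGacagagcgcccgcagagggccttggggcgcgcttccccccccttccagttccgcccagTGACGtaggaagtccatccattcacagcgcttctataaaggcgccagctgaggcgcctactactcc
Fosb (chr7:19310046-19310195, minus strand): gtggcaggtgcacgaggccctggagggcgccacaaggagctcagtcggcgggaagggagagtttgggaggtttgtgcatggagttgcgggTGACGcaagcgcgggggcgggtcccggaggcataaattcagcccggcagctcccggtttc
Jun (chr4:95052223-95052372, minus strand): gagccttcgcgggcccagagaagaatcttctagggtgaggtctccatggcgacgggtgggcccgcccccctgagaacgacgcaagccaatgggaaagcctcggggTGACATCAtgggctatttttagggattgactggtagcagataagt
Junb (chr8:84978749-84978898, minus strand): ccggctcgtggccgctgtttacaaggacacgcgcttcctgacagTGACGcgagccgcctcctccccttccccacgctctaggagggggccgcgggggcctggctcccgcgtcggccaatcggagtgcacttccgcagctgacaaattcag
Fshb (chr2:107059652-107059801, minus strand): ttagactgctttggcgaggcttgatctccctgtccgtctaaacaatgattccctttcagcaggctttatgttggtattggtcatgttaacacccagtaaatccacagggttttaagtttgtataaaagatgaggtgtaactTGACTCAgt

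Over the 250 bases before the start, Fos held TGACG at 129 to 125 and at 66 to 62 bases before the start. Fosb held it at 60 to 56 and Junb at 106 to 102. Jun held TGACATCA, a match to TGACNTCA, at 45 to 38 bases before its start. Fshb held TGACTCA, a match to TGANTCA, at 9 to 3 bases before its start. Of all 32851 RefSeq promoter windows of this length, 17.8% held TGACG, 7.49% held TGACNTCA and 6.75% held TGANTCA. A match describes letters in this window and does not show binding. RefSeq and GENCODE starts lay 671 bases apart for Fosl2, 1210 for Jund and 34706 for Atf3, so their windows are not shown. Fosl1 had no entry.

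Transcripts of 7 of the 8 AP-1 genes ranked among the first 633 genes in every library of both genotypes, and Fosl1 was lower. On the scale of CPM per kb of exon, which allows levels of different genes to be compared, Junb was the highest, with 785 and 690 CPM per kb in cKO and 579 and 605 CPM per kb in controls. It ranked 41st and 46th in cKO and 47th and 43rd in controls among 17330 tested genes with a length. Fos followed with 353 and 373 CPM per kb in cKO and 370 and 359 CPM per kb in controls, at ranks from 65 to 68. The next members were close to each other. Fosb had 231 and 248 CPM per kb in cKO and 235 and 225 CPM per kb in controls. Jund, a JUN subunit that is expressed in many resting cells, had 223 and 234 CPM per kb in cKO and 189 and 196 CPM per kb in controls. Jun, which gives the JUN subunits their name, had 196 and 204 CPM per kb in cKO and 180 and 216 CPM per kb in controls.

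The lower end of the order held the remaining members. Atf3, a stress-inducible bZIP factor that can repress its targets, had 111 and 127 CPM per kb in cKO and 104 and 104 CPM per kb in controls. Fosl2, which codes for FRA-2, had 71.5 and 61.9 CPM per kb in cKO and 54.6 and 54.1 CPM per kb in controls. Fosl1, which codes for FRA-1, was the lowest, with 28.9 and 24.4 CPM per kb in cKO and 6.31 and 17.7 CPM per kb in controls. Its rank was 1499 and 1946 in cKO, but 7032 and 2752 in controls, a far wider spread than for any other member. Over the 4 libraries, 5 of the 7 neighbouring pairs in this order did not overlap. The overlapping pairs were Fosb with Jund and Jund with Jun. The same order was found within 3 of the 4 libraries, and control replicate 2, with Jun above Jund, was the exception.

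**Figure D1:**
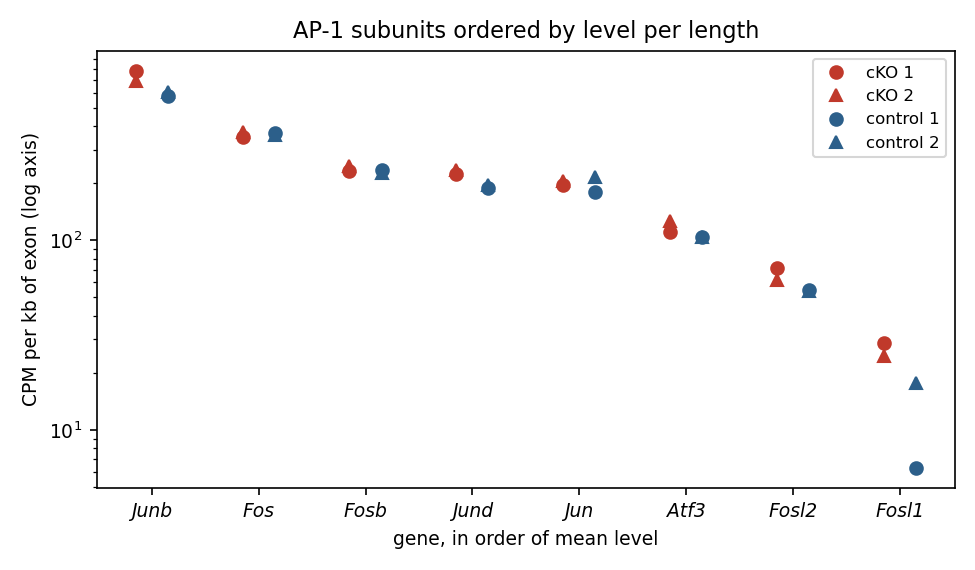
Level of each AP-1 gene in CPM per kb of exon (log axis), with genes in order of their mean. Red points are cKO libraries and blue points controls, circles replicate 1 and triangles replicate 2; Junb lies between 579 and 785 in all 4 libraries, and the Fosl1 controls are at 6.31 and 17.7.

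The level of Fosb relative to Fos depended on the length used, though not its place in the order. Its 7 annotated transcripts cover 6243 bases in all, while the longest single transcript has 3782 bases. With the longest transcript as the length, Fosb had 382 and 409 CPM per kb in cKO and 389 and 372 CPM per kb in controls. Fos then had 393 and 417 CPM per kb in cKO and 413 and 400 CPM per kb in controls, so the ranges of the pair overlapped. Counts per gene do not separate full-length FOSB from its truncated splice form, ΔFOSB.

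No AP-1 gene passed the test between genotypes. Of the 8 members, 0 had an edgeR adjusted p under 0.05, where 0.0576% of all genes tested did (10 of 17349, with 0.0115% higher and 0.0461% lower in cKO). DESeq2 and limma-voom also called 0 of the 8, where DESeq2 called 5.44% of all genes (2.43% higher in cKO) and limma-voom 1.48% (0.784% higher in cKO). At an unadjusted p under 0.05 there were 2 members, Junb and Fosl1, both higher in cKO. At that level 7.04% of all genes passed in either direction, with 3.15% higher and 3.88% lower in cKO. Both cKO libraries lay above both controls for 5 members (Fosl1, Fosl2, Junb, Jund and Atf3), which was the case for 19.7% of all genes tested. Both lay below for 0 members, against 19.3% of all genes, and in either direction 39.0% of all genes did not overlap. The median log2 fold change (cKO minus control) of the 8 was 0.22, beside 0.03 over all genes tested. Since the members belong to 1 family and were measured in the same libraries, these counts describe them and carry no test.

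**Figure D2:**
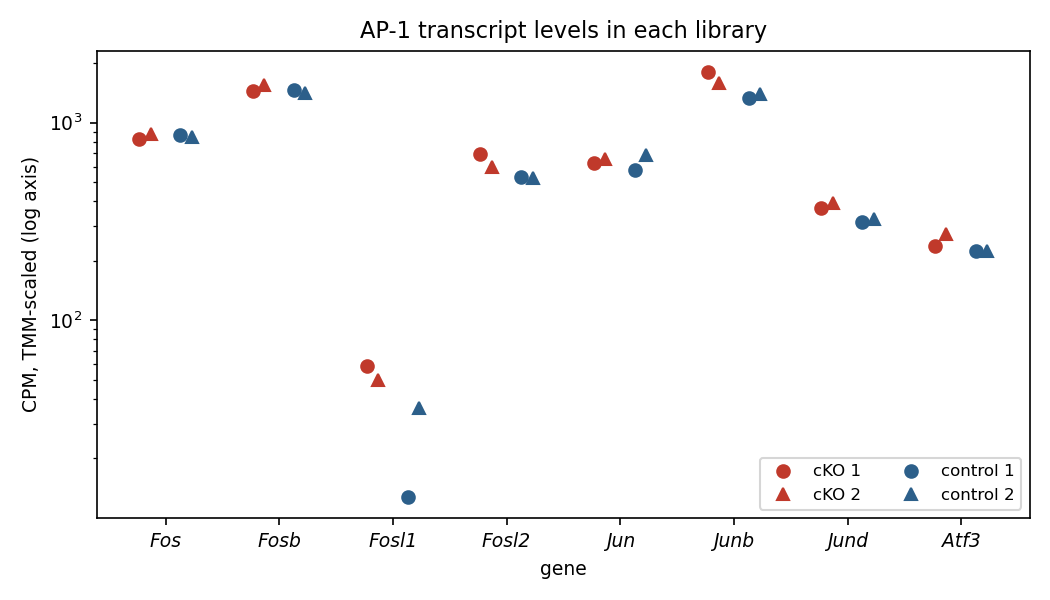
Level of each AP-1 gene in CPM after TMM scaling (log axis), for cKO replicates 1 and 2 (red circle and triangle) and control replicates 1 and 2 (blue circle and triangle). The genotypes overlap for Fos, Fosb and Jun, and both cKO points lie above both control points for the other 5 genes; lengths differ, so heights are not comparable between genes.

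Among the FOS subunits, Fos and Fosb were at nearly the same level in both genotypes. Fos (ENSMUSG00000021250.13, mm10 chromosome 12, 85473890 to 85477273, plus strand) had 829 and 878 CPM in the cKO libraries and 871 and 844 CPM in the controls. The groups overlapped, and the log2 fold change was close to 0 (-0.0061, SE 0.12, 95% interval -0.29 to 0.28, edgeR adjusted p = 0.999). Fosb (ENSMUSG00000003545.3, chromosome 7, 19302696 to 19310051, minus strand) had 1444 and 1548 CPM in cKO and 1470 and 1406 CPM in controls. Its values overlapped as well, with cKO replicate 2 the highest, and the log2 fold change was 0.057 (95% interval -0.20 to 0.32, edgeR adjusted p = 0.999). These intervals still hold changes of either sign.

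Fosl2 was higher in both cKO libraries without passing the test. It codes for FRA-2, which lacks the strong activation domain of FOS. Fosl2 (ENSMUSG00000029135.10, chromosome 5, 32135801 to 32157842, plus strand) had 693 and 599 CPM in cKO and 529 and 524 CPM in controls. The controls differed little from each other and cKO replicate 1 was the highest. Fosl2 had a log2 fold change of 0.30 with SE 0.14 (95% interval -0.026 to 0.62, edgeR adjusted p = 0.729).

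Fosl1 had the largest fold change of the 8 and the widest spread. It codes for FRA-1, which is itself induced by AP-1 in many cells. Fosl1 (ENSMUSG00000024912.5, chromosome 19, 5447547 to 5455946, plus strand) had 913 and 883 counts in cKO and 141 and 753 counts in controls. This gave 58.7 and 49.6 CPM in cKO, against 12.8 and 36.0 CPM in controls. The groups did not overlap, but the 2 controls lay further from each other than control replicate 2 lay from either cKO library. The fitted log2 fold change of Fosl1 was 1.14, a 2.21-fold difference (SE 0.48, 95% interval 0.014 to 2.27, edgeR adjusted p = 0.700). Without control replicate 1 it was 0.58 and not called, and without control replicate 2 it was 2.08 (edgeR adjusted p = 0.0188), the one fit in which a member was called.

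The Fosl1 count also shares its locus with another gene. Of its 2033 exon bases, 1163 lie opposite exons of Ccdc85b, and whether the counting used strand is not stated. Ccdc85b, which codes for a coiled-coil protein, had 50.5 and 41.0 CPM in cKO and 20.9 and 41.3 CPM in controls. Control replicate 1 was thus the lowest library for both genes. Reads of the pair cannot be told apart without strand, so the level of Fosl1 is uncertain.

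Of the JUN subunits, Junb and Jund were higher in both cKO libraries and Jun was not. Junb (ENSMUSG00000052837.6, chromosome 8, 84974484 to 84978718, minus strand) codes for a subunit that activates transcription less strongly than JUN at many sites. It had 1806 and 1587 CPM in cKO, against 1332 and 1391 CPM in controls. The groups did not overlap, and the 2 cKO libraries differed from each other by more than the lower of them exceeded the higher control. Junb was 1.25-fold higher in the fit, a log2 fold change of 0.32 (SE 0.12, 95% interval 0.039 to 0.59, edgeR adjusted p = 0.668). With DESeq2 and limma-voom the adjusted p was 0.0552 and 0.0545. Of its exon bases, 173 are shared with Prdx2 on the opposite strand, which had 131 and 169 CPM in cKO and 153 and 185 CPM in controls.

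Jund (ENSMUSG00000071076.6, chromosome 8, 70698949 to 70700616, plus strand) had 371 and 391 CPM in cKO and 316 and 327 CPM in controls. The 2 groups were separate and each was narrow, with SDs of 13.7 CPM in cKO and 8.22 CPM in controls. Jund had a log2 fold change of 0.25 with SE 0.14 (95% interval -0.079 to 0.57, edgeR adjusted p = 0.809). Its deposited counts were not whole numbers in 3 of the 4 libraries, unlike those of the other 7 members, so part of its value may rest on reads divided between features. Gm11175, which lies opposite 877 of its exon bases, had 0 counts.

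Jun (ENSMUSG00000052684.4, chromosome 4, 95049034 to 95052222, minus strand) is a gene of a single exon. It had 624 and 652 CPM in cKO and 574 and 688 CPM in controls. The controls were the lowest and the highest of the 4, and the cKO values lay between them. This gave a log2 fold change of 0.016 (SE 0.14, 95% interval -0.32 to 0.35, edgeR adjusted p = 0.999), and its sign changed with library-size scaling (-0.022) and upper-quartile scaling (-0.016). The antisense transcript Junos, which shares 232 exon bases with Jun, had 145 and 104 counts in cKO and 0 and 64 counts in controls, far below the 6308 to 14397 counts of Jun.

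Atf3 (ENSMUSG00000026628.13, chromosome 1, 191170296 to 191218039, minus strand) had 239 and 273 CPM in cKO and 224 and 225 CPM in controls. The controls were nearly identical and cKO replicate 2 was the highest library. The log2 fold change was 0.19 (SE 0.16, 95% interval -0.17 to 0.56, edgeR adjusted p = 0.955).

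**Figure D3:**
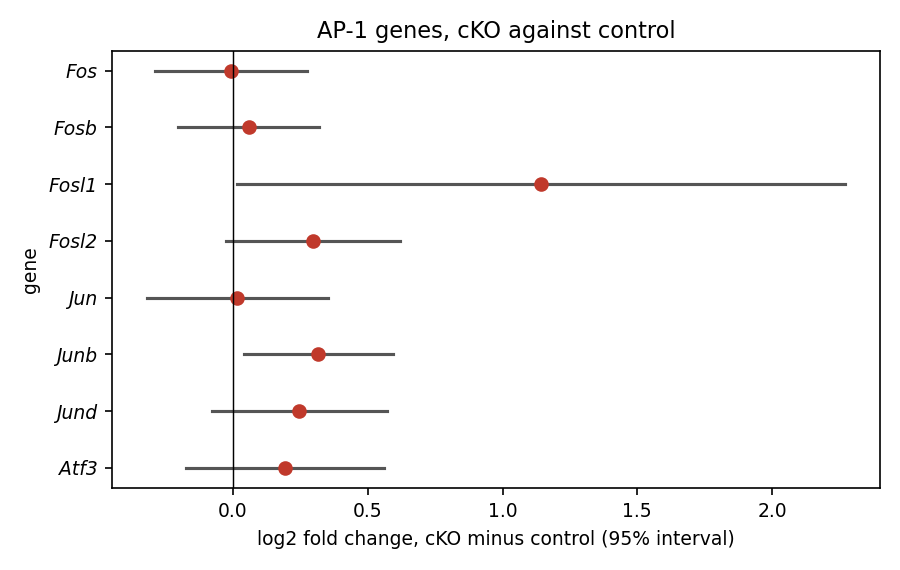
Log2 fold change, cKO minus control, of each AP-1 gene from edgeR (point) with its 95% interval (line). Intervals of Junb (0.039 to 0.59) and Fosl1 (0.014 to 2.27) lie above 0 before adjustment, and those of the other 6 genes include 0.

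The make-up of the family was compared within libraries, where the scaling between libraries cancels out. Shares were taken of the summed CPM per kb of the 4 FOS or the 3 JUN genes. Fos transcripts made up 51.5% and 52.8% of the FOS family in cKO, against 55.5% and 54.7% in controls. Fosb held 33.8% and 35.05% in cKO and 35.3% and 34.3% in controls, and these values overlapped. Fosl2 held 10.5% and 8.75% in cKO and 8.19% and 8.25% in controls. Fosl1 held 4.22% and 3.45% in cKO and 0.946% and 2.70% in controls. Thus Fos and Fosb were the main FOS transcripts in every library, and the shares of both FRA genes were higher in both cKO libraries. The size of each share depends on the length used, above all for Fosb beside Fos. The Fosl1 share is as uncertain as its count, given the overlap with Ccdc85b.

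In the JUN family, Junb was the main transcript, with 65.2% and 61.13% in cKO and 61.07% and 59.5% in controls. Jun held 16.3% and 18.1% in cKO and 19.0% and 21.2% in controls, so its share was lower in both cKO libraries. Jund held 18.5% and 20.8% in cKO, which overlapped with 19.96% and 19.3% in controls. Summed over the 3 genes, the JUN level was 1203 and 1128 CPM per kb in cKO, against 948 and 1016 CPM per kb in controls. The summed FOS level was 684 and 708 CPM per kb in cKO and 666 and 656 CPM per kb in controls. On the TMM scale both sums were higher in both cKO libraries, by more for JUN. Unlike the shares, the sums depend on the scaling between libraries, and other scalings were not tried for them. The TMM factors ran from 0.97 in cKO replicate 2 to 1.03 in control replicate 1. The summed FOS level divided by the summed JUN level was 0.569 and 0.627 in cKO and 0.703 and 0.645 in controls. Of the 7 shares and this ratio, 6 measures did not overlap between genotypes and had an exact two-sided permutation p of 0.333 over the 4 libraries. That is the smallest p that 2 libraries against 2 allow, so no such measure could pass a threshold of 0.05. Shares of a family add up to a fixed total, so these measures are not independent of each other. Among single genes, the levels of 39.0% of all genes tested did not overlap between genotypes.

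**Figure D4:**
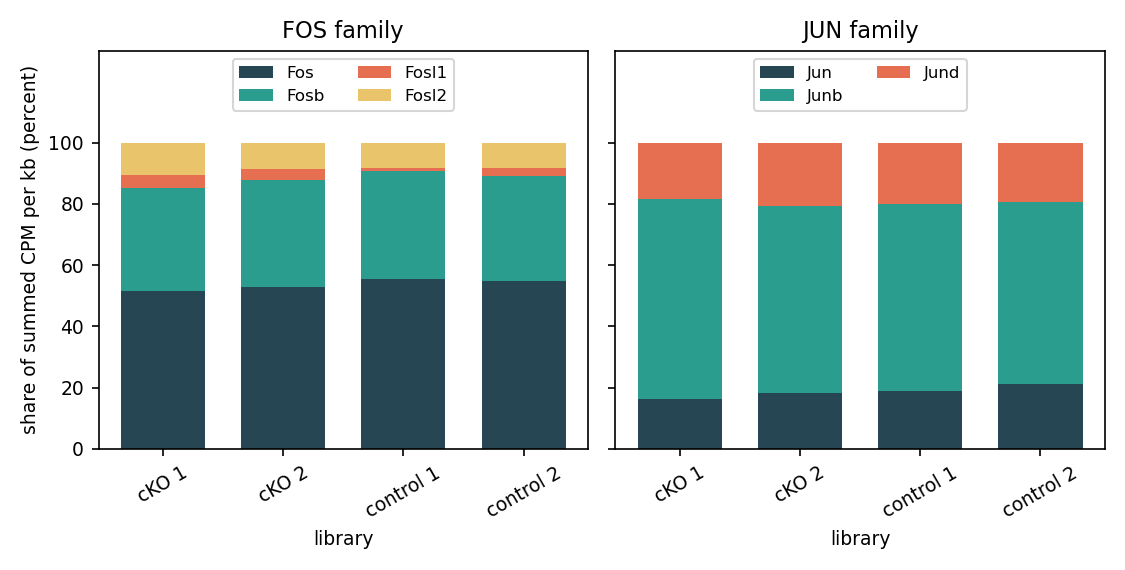
Share of each gene in the summed CPM per kb of its family (percent), for cKO replicates 1 and 2 and control replicates 1 and 2; left, FOS family, right, JUN family. Fos is 51.5% to 52.8% of the FOS family in cKO and 54.7% to 55.5% in controls, and Junb is 59.5% to 65.2% of the JUN family in all 4 libraries.

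Genes with a pattern close to that of a member over the 4 libraries were sought among 6097 other genes whose log2 CPM averaged 5 or more, by the Euclidean distance between mean-centred log2 CPM values. Psmb3 (distance 0.037) and Ubb (0.038) were nearest to Fos, Rps3a2 (0.022) and Anxa4 (0.025) to Fosb, and Nab1 (0.017) and Ddx39b (0.032) to Fosl2. Mib1 (0.018) and Cand1 (0.022) were nearest to Jun, Arpc3 (0.033) and Hmga1 (0.036) to Junb, Ranbp10 (0.020) and Mast2 (0.027) to Jund, and Tap1 (0.020) and Sfswap (0.021) to Atf3. For these members 30 to 100 genes lay within a distance of 0.1, so such patterns were common. For Fosl1 there were 0, and the nearest were Hectd2 (0.101) and Gdap10 (0.112), both lowest in control replicate 1.

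Genes that act with, upstream or downstream of AP-1 were examined in lists drawn up from their known roles. Earlier results of these data were known when the lists were chosen, so the list counts below are descriptive and carry no test. The list of other bZIP factors, drawn up as possible partners, had 19 tested members of 21, and Batf2 and Batf3 were at 0 in every library. Of these 0 were called by edgeR, 2 by DESeq2 (Maff and Mafg) and 0 by limma-voom, where DESeq2 called 5.44% of all genes and limma-voom 1.48%. Before adjustment 2 had an edgeR p under 0.05, against 7.04% of all genes. For 9 both cKO libraries were above both controls, against 19.7% of all genes. The median log2 fold change was 0.29, but 0.11 without control replicate 1, when that of all genes was -0.015. The small MAF gene Mafg had 220 and 200 CPM in cKO and 138 and 149 CPM in controls (log2 fold change 0.55, SE 0.16, edgeR adjusted p = 0.597). Maff had 83.1 and 74.5 CPM in cKO and 43.8 and 56.6 CPM in controls, and Atf7 51.6 and 77.6 CPM in cKO and 41.7 and 44.7 CPM in controls. Maff and Atf7 had edgeR adjusted p-values of 0.679 and 0.752.

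The kinases and factors upstream of AP-1 had list medians close to that of all genes. Of 23 MAP kinase cascade genes, 0 were called by edgeR, 1 by DESeq2 and 0 by limma-voom, and 1 had an unadjusted edgeR p under 0.05. Over all genes the shares were 5.44% by DESeq2 and 7.04% at that unadjusted p, so these counts are no higher than the background. The gene was Map2k3 in both cases, for a kinase that activates p38. Map2k3 had 74.6 and 76.4 CPM in cKO and 38.9 and 47.9 CPM in controls (log2 fold change 0.80, SE 0.24, adjusted p = 0.604). Rps6ka1, for the ERK-activated kinase RSK1, was at -0.64 (SE 0.30) and Mapk13, for a p38 isoform, at 1.36 (SE 0.72) on the log2 scale, with edgeR adjusted p-values of 0.729 and 0.778. The list's median was 0.04. Of 11 genes for serum response factor, its partners and CREB coactivators, 0 were called by edgeR, 1 by DESeq2 (Crtc2) and 0 by limma-voom, against 5.44% of all genes by DESeq2. At an unadjusted edgeR p under 0.05 there were 2, against 7.04% of all genes, and the list's median was 0.03. Of the 3 with the smallest p, 2 were higher in both cKO libraries and 1 was lower. The CREB coactivator gene Crtc2 had 205 and 211 CPM in cKO and 124 and 157 CPM in controls, the SRF partner gene Elk1 49.9 and 71.8 CPM in cKO and 37.9 and 37.1 CPM in controls, and the acetyltransferase gene Ep300 150 and 221 CPM in cKO and 249 and 264 CPM in controls.

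Genes that act on AP-1 turnover had a median of -0.01 over 13 members, with 0 called by edgeR, 1 by DESeq2, 1 by limma-voom and 1 at an unadjusted edgeR p under 0.05. Over all genes DESeq2 called 5.44%, limma-voom 1.48% and the unadjusted edgeR p 7.04%. In each case the gene called was Zfp36, whose protein, tristetraprolin, binds AU-rich elements and promotes the decay of immediate-early transcripts. Zfp36 had 989 and 997 CPM in cKO and 691 and 753 CPM in controls (log2 fold change 0.46, SE 0.12, edgeR adjusted p = 0.529). Det1, of a ubiquitin ligase complex that targets JUN, was at -1.16 (SE 0.58) and Khsrp, for an RNA decay factor, at 0.31 (SE 0.16), with edgeR adjusted p-values of 0.755 and 0.787.

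Known AP-1 targets went in both directions. Of 22 tested members 1 was called by edgeR, Fshb, lower in cKO, where 0.0461% of all genes were called lower. DESeq2 called 3 (2 higher, 1 lower) and limma-voom 4 (2 higher, 2 lower), against 5.44% and 1.48% of all genes. Both cKO libraries lay above both controls for 7 members and below for 5, against 19.7% and 19.3% of all genes. The list's median was 0.12. At an unadjusted edgeR p under 0.05, 2 members were higher and 2 lower, against 3.15% and 3.88% of all genes. Fshb had 618 and 812 CPM in cKO and 3263 and 2496 CPM in controls (log2 fold change -2.01, SE 0.18, edgeR adjusted p = 0.0381). With a minimum of 1 CPM in 2 libraries as the filter the adjusted p was 0.0531 (edgeR, log2 fold change -2.01). In the same libraries Fos, Fosb and Jun overlapped between genotypes, and the other 5 AP-1 genes were higher in both cKO libraries, as given above. A relation of these levels to Fshb was not tested. Gadd45a and Gadd45b, which are induced by growth arrest and DNA damage, were at 0.95 (SE 0.22) and 0.65 (SE 0.18) on the log2 scale. Their edgeR adjusted p-values were 0.467 and 0.563, while DESeq2 and limma-voom called both.

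Many of the other immediate-early genes had higher values in both cKO libraries, though none passed the edgeR test. Of 28 tested members, 0 were called by edgeR, 13 by DESeq2 and 8 by limma-voom, all of these higher in cKO. Over all genes DESeq2 called 2.43% higher in cKO and limma-voom 0.784%. On simulated counts DESeq2 called many unchanged genes, as given below. At an unadjusted edgeR p under 0.05 there were 14, each higher in cKO, where 3.15% of all genes were. Both cKO libraries were above both controls for 18 of the 28, or 64.3%, against 19.7% of all genes. The share was 71.4% against 28.6% of all genes without control replicate 1, and 67.9% against 40.5% without control replicate 2. Both cKO libraries were below both controls for 2 of the 28, against 19.3% of all genes, and 7 had a negative log2 fold change. The list's median was 0.45, beside 0.03 over all genes. Ccn1, for a secreted matricellular protein, had 120 and 116 CPM in cKO and 62.4 and 59.5 CPM in controls (log2 fold change 0.95, SE 0.20, edgeR adjusted p = 0.360). Klf6, for a zinc-finger factor, had 270 and 322 CPM in cKO and 139 and 176 CPM in controls, and Dusp5, for a phosphatase that acts on ERK, had 321 and 310 CPM in cKO and 125 and 193 CPM in controls. Their edgeR adjusted p-values were 0.368 and 0.394. Zfp36 and Dusp1 stand in this list and in another. Of the 8 AP-1 genes, both cKO libraries were above both controls for 5, or 62.5%. That share was 75.0% without control replicate 1 and 75.0% without control replicate 2. The genotypes overlapped for Fos, Fosb and Jun. Whether the family differs from the other immediate-early genes was not tested. Mitochondrial share and lactotrope markers were higher in both cKO libraries as well, and their part in these counts was not tested.

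Heat shock genes, which also respond to handling of cells, went in both directions, with 9 of the 14 fold changes negative. Both cKO libraries lay above both controls for 2 members and below for 5, against 19.7% and 19.3% of all genes. Of 14 members, 0 were called by edgeR, 2 by DESeq2 and 2 by limma-voom (Dnajb1 and Hspa8 in both), where DESeq2 called 5.44% and limma-voom 1.48% of all genes. At an unadjusted edgeR p under 0.05, 1 was higher and 1 lower, against 3.15% and 3.88% of all genes. The median was -0.07, beside 0.03 over all genes. Without control replicate 2 it was 0.18, beside 0.25 over all genes. Dnajb1, for an HSP40 cochaperone, had 886 and 922 CPM in cKO and 1235 and 1580 CPM in controls (log2 fold change -0.64, SE 0.15, edgeR adjusted p = 0.413). Hspa8, for the constitutive chaperone HSC70, had 3925 and 3973 CPM in cKO and 3232 and 3214 CPM in controls (0.29, SE 0.092, edgeR adjusted p = 0.620), with deposited counts that were not whole numbers. Dnajb4, for another HSP40 protein, was at 0.59 (SE 0.33, edgeR adjusted p = 0.809).

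**Figure D5:**
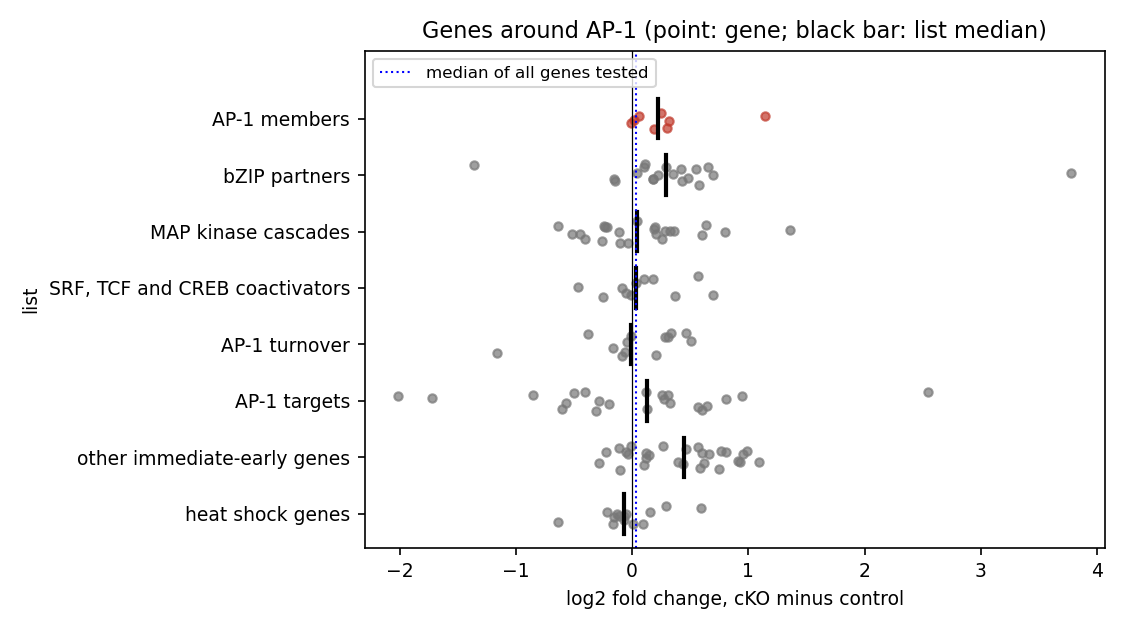
Log2 fold change, cKO minus control, of each tested gene (points) in the AP-1 family (red, top) and in 7 lists of related genes (grey); black bars are list medians and the dotted line is the median of all genes tested, 0.03. The medians are 0.22 for the 8 AP-1 genes, 0.45 for the other immediate-early genes and -0.07 for the heat shock genes.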

How the data were processed

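Gene expression was measured by sequencing of poly(A) RNA from FACS-sorted gonadotropes, with libraries from the Universal plus mRNA-seq kit, per the labels' protocols. The deposited values are estimated counts per gene without scaling between libraries. The authors used STAR 2.5.1b and featureCounts 1.5.0-p1 with mm10, per the submitters' processing notes. Which annotation release and strand setting were used, and how multiply aligned reads were treated, is not stated there. In the table, 4.50% of the values had a fractional part.

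Identifiers were matched without their version to GENCODE M21 names and positions on the same build. For a symbol with 2 identifiers (Ddit3) the one with more counts was used. Counts were rounded, filtered with filterByExpr (minimum count 10, minimum total 15), scaled by TMM and tested with edgeR 4.0.16 under R 4.3.3 (two-sided quasi-likelihood F-test, package defaults, genotype as the only term, Benjamini-Hochberg adjustment over all genes, threshold 0.05). SE is the size of the log2 fold change divided by the square root of F. The distance measure used log2 CPM with a prior of 0.5. Counts with known changes were simulated with dispersions estimated by edgeR. On these, edgeR, DESeq2 and limma-voom all recovered the fold sizes, and DESeq2 called many unchanged genes. Levels per kb used the union of annotated exons. DESeq2 1.42.0, limma-voom (limma 3.58.1), other scalings, filters, lengths, the replicate block and each library left out were alternatives. Named genes were the members, Gata2, Fshb, up to 3 genes with the smallest p from each pathway list, and the 2 nearest in pattern. Marker lists are given as sums, with genes of the highest mean CPM named in some. Genes outside the rule (overlapping genes, Emcn, C1qa, Tshb, Ghrhr, Nr5a1, Tgfbr3l, Batf2, Batf3) were named after their values were seen. The members and lists were chosen with earlier results of these data known.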

Additional observations from a re-analysis of the deposited data

How the results depend on the processing

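No member was called by edgeR with other scalings, other filters, robust fitting, the newer quasi-likelihood form (legacy=FALSE), unrounded counts, a replicate block, adjusted p under 0.10 or mitochondrial genes left out, nor by DESeq2 or limma-voom; dropping each library in turn gave 0 to 1, the call being Fosl1 without control replicate 2. In such fits the lone library is assumed to vary as the pair does. Over all genes the count of 10 became 943 with DESeq2, 256 with limma-voom, 253 without a filter, 47 with legacy=FALSE, 26 with robust fitting, 22 at adjusted p under 0.10, 3 with a minimum of 1 CPM in 2 libraries, and 66 to 681 when each library was dropped in turn. The pathway lists, with 1 gene called (Fshb), had 22 with DESeq2, 14 with limma-voom, 8 without a filter, 0 with the 1 CPM minimum and 1 to 14 on dropping each library. The causes were not tested. Same-numbered libraries did not deviate together (correlation across genes -0.011), and the replicate block gave 7 genes over the table, 0 members and 1 pathway gene, and an adjusted p of 0.0643 for Gata2.

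The log2 fold change of Jun changed sign with upper-quartile factors (-0.016), library size only (-0.022) and limma-voom (-0.0045), and was -0.12 to 0.16 on dropping each library; Fos was -0.059 to 0.032 and Fosb -0.0052 to 0.10. The signs of these 3 near-zero values are not determined. Fosl1, Fosl2, Junb, Jund and Atf3 stayed above 0 in all 17 fits, as did the Gata2 and Fshb fold changes below 0. The difference in the FOS to JUN ratio (-0.076) was -0.11 to -0.047 on dropping each library. The Fosb share difference of -0.41 points was -1.03 to 0.22, and that of Jund (0.0073 points) was -0.10 with the longest transcript as length and -1.12 to 1.14 on dropping each library. The 7 pathway and 11 marker list medians moved by no more than the spread between libraries in 248 of 288 alternative values, with control replicate 2 of most weight for the median of all genes, which was 0.25 without it. Leaving out mitochondrial genes, and counting genes above the controls with 1 control left out, were chosen after seeing the data.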
